A study of Mus musculus with 2 samples.

Results

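Hepatic stellate cells were followed through 9 marker genes, Lrat, Reln, Pdgfra, Pdgfrb, Hgf, Ngfr, Colec11, Hand2 and Cygb, out of 22180 genes measured in mouse liver. The genes were chosen by name, as markers of this cell type. That choice, and that of the other gene lists below, was made with earlier results of these data known. Each marker was represented by 1 probe set, the only one annotated with its symbol alone. The irradiated liver RNA came from male C57BL/6 mice that received 6 Gy of gamma rays to the whole body at 4 weeks of age, at 0.81 Gy per minute and under anaesthesia, and was collected 5 weeks later, at 9 weeks of age. The control liver RNA came from untreated male C57BL/6 mice, also 9 weeks old. C57BL/6 is an inbred strain, and neither group carried a transgene or other allele named in the labels. Each group held 1 Affymetrix whole-transcript array, and the labels leave unsaid if RNA of several mice was pooled and if control mice were anaesthetised. Differences are log2 values on the irradiated array minus those on the control array, and none of them has a replicate check, an error or a p-value.

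Stellate cells lie between the sinusoidal endothelium and the hepatocytes. In healthy liver they are quiescent, store vitamin A as retinyl esters in lipid droplets, and supply growth factors and matrix to their neighbours. After injury they can activate, lose their retinoid droplets and become contractile, matrix-producing myofibroblasts, with PDGF as a main mitogen and TGF-beta as a main inducer of collagen. The 9 genes mostly mark the resting cell or the lineage as a whole, while Acta2 and the fibrillar collagens are the usual marks of the activated one.

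The 9 markers were nearly level between the 2 livers. None was 1.5-fold higher or lower on the irradiated array, where 1.14% of the 13689 genes above an expression floor were higher by that much and 0.65% lower. The floor was 6.06, the median of all deposited values, and all 9 markers exceeded it on both arrays. Their differences ran from -0.03 to 0.25, with a median of 0.07, beside a median of -0.00 over all genes above the floor. Of the 9, 6 lay above 0 and 3 below, where 48.5% of genes above the floor lay above 0. Nothing was read from so small a count of signs. In whole-liver RNA the number of stellate cells and the RNA of each gene per cell cannot be told apart.

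**Figure D1:**
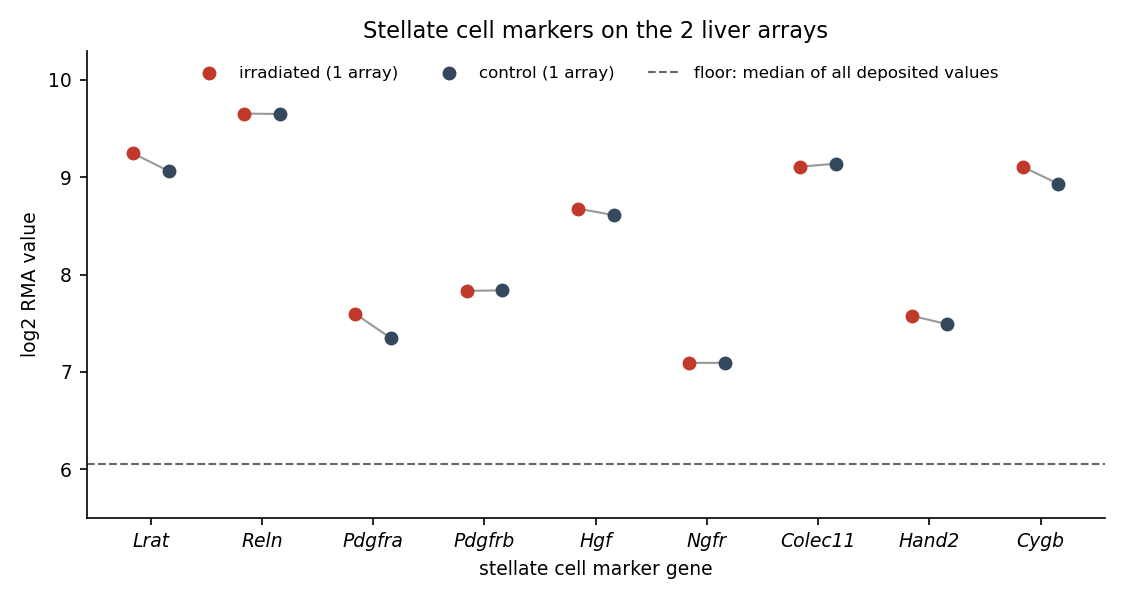
Log2 RMA value of each of the 9 stellate cell markers (x axis) on the irradiated array (left point) and the control array (right point), 1 array each, with the floor of 6.06 dashed. Lines join the values of 1 gene, whose difference is at most 0.25, and heights of different genes cannot be compared because each comes from its own probes.

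Lrat encodes lecithin-retinol acyltransferase, which makes the retinyl esters that stellate cells store. It read 9.25 in irradiated liver and 9.06 in control liver, a difference of 0.18 or 1.13-fold. Among 2179 other genes with a mean level within 0.5 of that of Lrat, 19.0% were at least as far from 0. Lrat thus sat in the upper part of the general spread without leaving it.

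Around Lrat, 29 of 30 listed genes of retinoid transport, storage, breakdown and signalling had a probe set of their own, and 25 were above the floor. Their median difference was -0.05, with 8 above 0 and 17 below. Of the 25, 0 were at least 1.5-fold higher, beside 1.14% of all genes above the floor. At least 1.5-fold lower was 1 gene of the 25, beside 0.65% of all genes above the floor. That gene was Cyp26a1, which encodes a retinoic acid hydroxylase whose transcription is known to be induced by retinoic acid. Cyp26a1 read 9.32 in irradiated liver and 10.26 in control liver, a difference of -0.94, and 0.576% of 1562 genes of like level were as far from 0. The related hydroxylase gene Cyp26b1, picked after its value was seen, ran the other way, at 7.89 against 7.38 in control, short of 1.5-fold (0.51). The plasma retinol carrier gene Rbp4 read 13.40 in irradiated and 13.36 in control liver (0.04). Rarb, a retinoic acid receptor gene that retinoic acid also induces and that was also picked after its value was seen, read 7.28 in irradiated and 7.42 in control liver (-0.14).

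The promoters below are shown because Cyp26a1 and Rarb are the textbook targets of the retinoic acid receptor and Lrat is the retinoid enzyme among the markers. They were chosen after the values were seen. Each is the 250 bases before the gene's start, 5′ to 3′ on the strand of the gene, from RefSeq on GRCm38.p6. Capitals mark a direct repeat of 2 receptor half-sites spaced by 5 bases, known as DR5 and searched on both strands, where a half-site was AGGTCA with G also allowed as the first letter and T as the third.
Cyp26a1, chr19:37697558-37697807, plus strand: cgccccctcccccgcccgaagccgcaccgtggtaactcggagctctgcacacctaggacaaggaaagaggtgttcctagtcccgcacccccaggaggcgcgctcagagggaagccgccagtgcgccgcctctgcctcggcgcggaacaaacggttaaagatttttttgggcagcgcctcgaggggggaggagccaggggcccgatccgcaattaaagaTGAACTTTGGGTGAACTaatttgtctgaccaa
Rarb, chr14:16575477-16575726, minus strand: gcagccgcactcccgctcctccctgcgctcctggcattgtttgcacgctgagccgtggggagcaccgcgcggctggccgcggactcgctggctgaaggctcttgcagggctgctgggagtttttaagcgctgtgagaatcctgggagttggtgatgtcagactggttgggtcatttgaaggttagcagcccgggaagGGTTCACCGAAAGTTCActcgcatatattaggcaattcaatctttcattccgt
Lrat, chr3:82903975-82904224, minus strand: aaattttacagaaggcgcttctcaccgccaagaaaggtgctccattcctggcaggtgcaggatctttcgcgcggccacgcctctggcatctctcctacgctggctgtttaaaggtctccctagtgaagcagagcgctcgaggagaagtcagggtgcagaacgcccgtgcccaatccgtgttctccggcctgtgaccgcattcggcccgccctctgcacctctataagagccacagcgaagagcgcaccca
The repeat began 32 bases before the start in Cyp26a1, where it reads on the opposite strand, and 53 bases before it in Rarb. The windows of Cyp26b1 and Rbp4, searched as well and not printed, held 0 repeats. Over all genes the repeat was found in 29 of 32851 promoter windows of this length, 0.0883%. The table held windows for 7 of the 9 markers, 8 windows in all, and 0 of them contained the repeat. These letters describe the windows only, and nothing about the differences was read from them.

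The PDGF receptor genes Pdgfra and Pdgfrb encode receptor tyrosine kinases of mesenchymal cells, and PDGF receptor beta carries the mitogenic signal in activated stellate cells. Pdgfra read 7.60 in irradiated liver and 7.35 in control liver. Its difference of 0.25, or 1.19-fold, was the highest of the 9 markers, and 16.3% of 2887 genes of like level were as far from 0. Pdgfrb read 7.83 in irradiated liver and 7.84 in control liver, a difference of -0.01, where 96.4% of 2752 genes of like level were as far from 0. Only Pdgfra of the pair lay outside the central 50% of all genes above the floor, which ran from -0.11 to 0.10. Pdgfra is also expressed by portal fibroblasts.

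All 4 PDGF ligand genes lay above 0, none of them at 1.5-fold. Over all genes above the floor, 48.5% lay above 0. Nothing was read from the signs of 4 genes. Pdgfd, whose product acts through PDGF receptor beta, read 7.60 in irradiated against 7.04 in control liver, a difference of 0.56 or 1.47-fold. Among 2968 genes of like level, 2.46% were as far from 0 as Pdgfd. Pdgfc, a ligand of PDGF receptor alpha, read 7.98 against 7.57 in control (0.41). Pdgfa differed by 0.12 and Pdgfb by 0.11. Over the wider list of PDGF ligands, processing enzymes and signal transducers, 22 genes were above the floor, with a median of 0.10, 16 above 0 and 0 past 1.5-fold in either direction.

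Ngfr encodes the low-affinity neurotrophin receptor p75, found on stellate cells as well as on nerves and portal fibroblasts. It read 7.09 in irradiated and 7.09 in control liver, the closest pair of the 9. Sort1, which encodes the p75 co-receptor sortilin, differed by 0.11 (8.86 in irradiated, 8.74 in control), while its second probe set differed by -0.12. The neurotrophin receptor gene Ntrk2 reached 6.06 in irradiated liver and was below the floor in control liver at 5.56, so that its 1.42-fold difference became 1.00-fold against the floor. Bdnf and Ntrk3 were below the floor on both arrays. Of 14 neurotrophin pathway genes with a probe set, 7 were above the floor, and 0 of those passed 1.5-fold.

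Hgf, hepatocyte growth factor, is a stellate cell product and a strong mitogen for hepatocytes. It read 8.68 in irradiated liver and 8.61 in control liver, a difference of 0.07 that 64.5% of 2557 genes of like level matched or exceeded in size. Its receptor gene Met, expressed by hepatocytes, read 10.06 in irradiated and 10.20 in control liver (-0.14). Hgfac, which encodes a protease that activates the HGF precursor, stood at 10.91 on both arrays. Of 17 genes of HGF activation and reception, all above the floor, 10 lay above 0 and 7 below, with a median of 0.08 and 0 past 1.5-fold. Hgf, Hgfac and Met were thus all within 0.14 of level, while the 17 genes ran from -0.14 to 0.45.

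Reln encodes reelin, a secreted glycoprotein known from neuronal migration and, in liver, from stellate cells. It read 9.65 in irradiated and 9.65 in control liver, a difference of 0.01. Both of its receptor genes read close to the floor. Vldlr read 6.16 in irradiated and 6.71 in control liver, a difference of -0.56 and short of 1.5-fold, and 2.0% of 4347 genes of like level were as far from 0. Lrp8 read 6.38 in irradiated and 6.28 in control liver (0.10). Over 12 reelin pathway genes above the floor the median was 0.03 and the mean -0.01, with 6 above 0 and 6 below.

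Colec11 encodes the collectin CL-K1, a soluble lectin that joins the product of Colec10 in complexes that start the lectin pathway of complement. It read 9.11 in irradiated liver and 9.14 in control liver, a difference of -0.03, the lowest of the 9. Colec10 read 9.14 in irradiated and 9.29 in control liver (-0.14), and Masp1, which encodes a protease carried by these complexes, 11.49 in irradiated and 11.52 in control liver (-0.03). All 3 were slightly below 0, and none was near 1.5-fold. Of 10 lectin pathway genes above the floor, 6 lay above 0, with a median of 0.01 and 0 past 1.5-fold.

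Hand2 encodes a basic helix-loop-helix transcription factor of lateral mesoderm that is kept in stellate cells. It read 7.58 in irradiated liver and 7.49 in control liver, a difference of 0.09 that 59.7% of 2843 genes of like level matched or exceeded. Lhx2, a LIM-homeobox gene whose loss in mice leads to liver fibrosis, differed by -0.05 (7.26 in irradiated, 7.31 in control). Gata4, a zinc finger factor also expressed in endothelium, differed by 0.02 (8.60 in irradiated, 8.57 in control). Hand1, the relative of Hand2, differed by -0.09, close to the floor on both arrays. Among 19 mesodermal factor genes above the floor the median was -0.00. The T-box repressor gene Tbx3, also a marker of pericentral hepatocytes, was the 1 gene at least 1.5-fold lower. It read 8.51 in irradiated against 9.22 in control liver (-0.71). Over all genes above the floor, 0.65% were as much lower.

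Cygb encodes cytoglobin, a haem protein that binds oxygen and nitric oxide and is found in mouse liver mainly in stellate cells. It read 9.11 in irradiated liver and 8.93 in control liver, a difference of 0.17 or 1.13-fold, and 22.1% of 2293 genes of like level were as far from 0. The myoglobin gene Mb differed by 0.16 (6.60 in irradiated, 6.44 in control) and the neuroglobin gene Ngb by 0.04 (6.60 in irradiated, 6.56 in control), both near the floor. Cygb, Lrat and Pdgfra were the 3 markers above the central 50% of all genes, and the other 6 lay inside it. All 9 lay inside the central 95%, from -0.37 to 0.42.

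**Figure D2:**
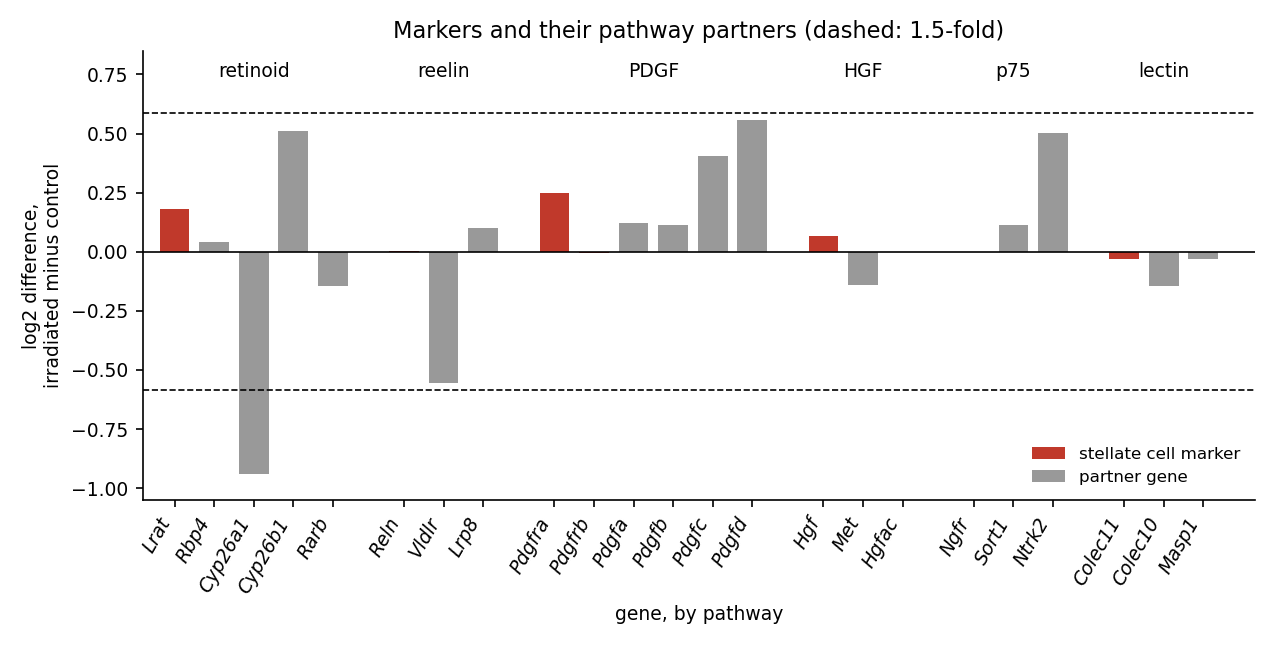
Log2 difference, irradiated minus control, of 7 markers (red) and their pathway partners (grey) on the y axis, grouped by pathway on the x axis, from 1 array per group. Marker bars stay between -0.03 and 0.25, while Cyp26a1 at -0.94 is the 1 bar past the dashed 1.5-fold lines.

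**Figure D3:**
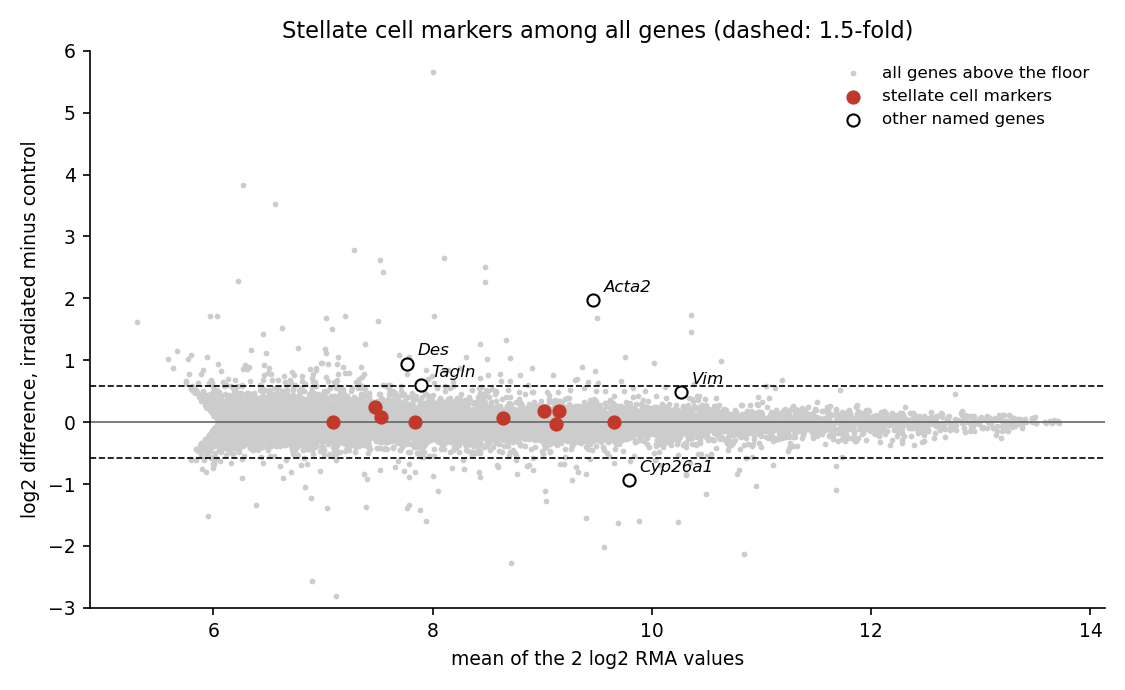
Log2 difference, irradiated minus control (y axis), against the mean of the 2 log2 RMA values (x axis) for 13689 genes above the floor (grey), the 9 markers (red) and 5 other named genes (open circles). The markers lie in the dense band around 0, between -0.03 and 0.25. Acta2 at 1.97, Des at 0.95, Tagln at 0.59 (just past the line) and Cyp26a1 at -0.94 lie outside the dashed 1.5-fold lines.

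The label was read against further genes of the same cell. Of 44 other stellate cell genes with a probe set, 41 were above the floor, with a median difference of -0.01 and a mean of 0.04, 20 above 0 and 21 below. Des, the intermediate filament gene desmin, was the 1 gene at least 1.5-fold higher, at 8.24 in irradiated against 7.29 in control liver. As much lower were 0 genes. Over all genes above the floor, 1.14% were as much higher and 0.65% as much lower. Des also stands in the smooth muscle list. Without it, the other 40 genes had a median of -0.01, with 0 past 1.5-fold. Vim, which encodes vimentin, read 10.51 in irradiated and 10.02 in control liver (0.49), and 0.22 separated the arrays at its second probe set. The proteoglycan gene Dcn differed by 0.14 (12.02 in irradiated, 11.89 in control). These named genes were all higher, while the 41 genes ran from -0.31 to 0.95. Gfap, a glial filament gene used to mark stellate cells in rats, was below the floor on both arrays. Several of the 9 markers are shared with other mesenchymal or neural cells, so the levels cannot be assigned to stellate cells alone.

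Genes of the activated state held larger differences than the 9 markers. Of 27 activated stellate genes above the floor, 24 lay above 0, with a median of 0.23, 3 were at least 1.5-fold higher and 0 as much lower. Over all genes above the floor, 48.5% lay above 0, 1.14% were 1.5-fold higher and 0.65% as much lower. The floor was set on the higher of the 2 values. Col5a2 (6.28 in irradiated, 6.03 in control) and S100a6 (6.13 in irradiated, 5.98 in control) passed it through the irradiated array alone. Both therefore had to count as above 0. Acta2, the smooth muscle actin gene, read 10.45 in irradiated and 8.48 in control liver, 3.92-fold higher. Postn, which encodes the matrix protein periostin, was 1.69-fold higher (9.48 in irradiated, 8.72 in control), and Tagln, which encodes the actin-binding protein transgelin, 1.51-fold (8.19 in irradiated, 7.59 in control). Tagln fell short of 1.5-fold with arrays centred on their medians (0.58) or with 32 added on the linear scale (0.52). The 8 collagen genes of the list ran from -0.05 to 0.31 with 7 above 0, among them Col1a1 at 0.27. Col1a2, Col5a1 and Col6a1 had 2 probe sets each, of which the one with the higher mean was used. With probe sets averaged, the median of the 27 genes was 0.16. Of the 27 genes, 13 exceeded Pdgfra, the highest marker, at 0.25. The lists differ in size and in cell types, and the difference between them was not tested.

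Further contractile genes were higher beside Acta2, Des and Tagln, which stand in the smooth muscle list too. Of 18 smooth muscle genes above the floor, 16 lay above 0 and 6 were at least 1.5-fold higher, with a median of 0.24. The shares over all genes above the floor were 48.5% and 1.14%. Myocd (6.17 in irradiated, 6.02 in control) passed the floor through the irradiated array alone and so had to count as above 0. Cnn1, which encodes calponin, was 5.37-fold higher (8.76 in irradiated, 6.34 in control), and Myl9, a myosin light chain gene, 1.80-fold (8.54 in irradiated, 7.69 in control). With 32 added on the linear scale, the log2 difference of Cnn1 fell from 2.42 to 2.05. The log2 of the summed linear values of all 20 smooth muscle genes with a probe set was 12.6 in irradiated and 11.9 in control liver. This sum weights each gene by the response of its own probes. Without the 4 genes it shares with that list, the activated stellate list had a median of 0.18 over 24 genes, with 21 above 0 and Postn alone past 1.5-fold. The part of smooth muscle cells in these values was not tested.

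Markers of other neighbours were set beside them. Portal fibroblast genes had a median of 0.30 over 12 genes, and of 0.19 once lower values were raised to the floor. Of the 12, 11 lay above 0, where 48.5% of all genes above the floor did. Osr1 and Mfap4 passed the floor through the irradiated array alone, and Pi16 through the control array alone. Cd34, also an endothelial gene, was 1.52-fold higher (0.60), but short of 1.5-fold after median centring (0.58) or with 32 added (0.50). Thy1, a surface glycoprotein gene of portal fibroblasts, differed by 0.07. Mesothelial genes had a median of 0.20 over 12 genes. The membrane glycoprotein gene Gpm6a differed by 0.63 (0.56 with 32 added, short of 1.5-fold). The keratin gene Krt19, shared with bile ducts, differed by 1.20 (0.92 with 32 added). Msln, the mesothelin gene, differed by 0.05, near the floor on both arrays (6.18 in irradiated, 6.13 in control). The mesothelial list holds other keratin genes beside Krt19 and shares 2 genes with the bile duct list, so its median is not particular to mesothelium. All 10 bile duct genes above the floor lay above 0, beside the same 48.5% of all genes. They ran from 0.07 to 2.62, with a median of 0.72. Over the 12 with a probe set, the summed linear level was 11.5 in irradiated and 10.4 in control liver on the log2 scale. Such a sum gives most weight to genes of high value. Of the bile duct genes 6 were at least 1.5-fold higher, beside 1.14% of all genes above the floor. Among these 6 were the mucin gene Muc1 at 2.62, Cd24a at 2.5 (1.10 at its second probe set and 1.80 with both averaged) and the annexin gene Anxa13 at 1.12. With 32 added, Muc1 was at 2.20, Cd24a at 2.27 and Anxa13 at 0.90. In control liver Muc1 read 6.21, Krt19 6.18 and Anxa13 6.47, against a floor of 6.06. Kupffer cell genes had a median of 0.14 over 17 genes, where Cd14 alone passed 1.5-fold (1.57-fold) but was below the floor in control and 1.28-fold higher against it. Endothelial genes had a median of -0.06 over 21 genes and hepatocyte genes 0.00 over 19, none of either past 1.5-fold, with Alb at 0.01. The part of these cells in the markers' values was not tested.

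**Figure D4:**
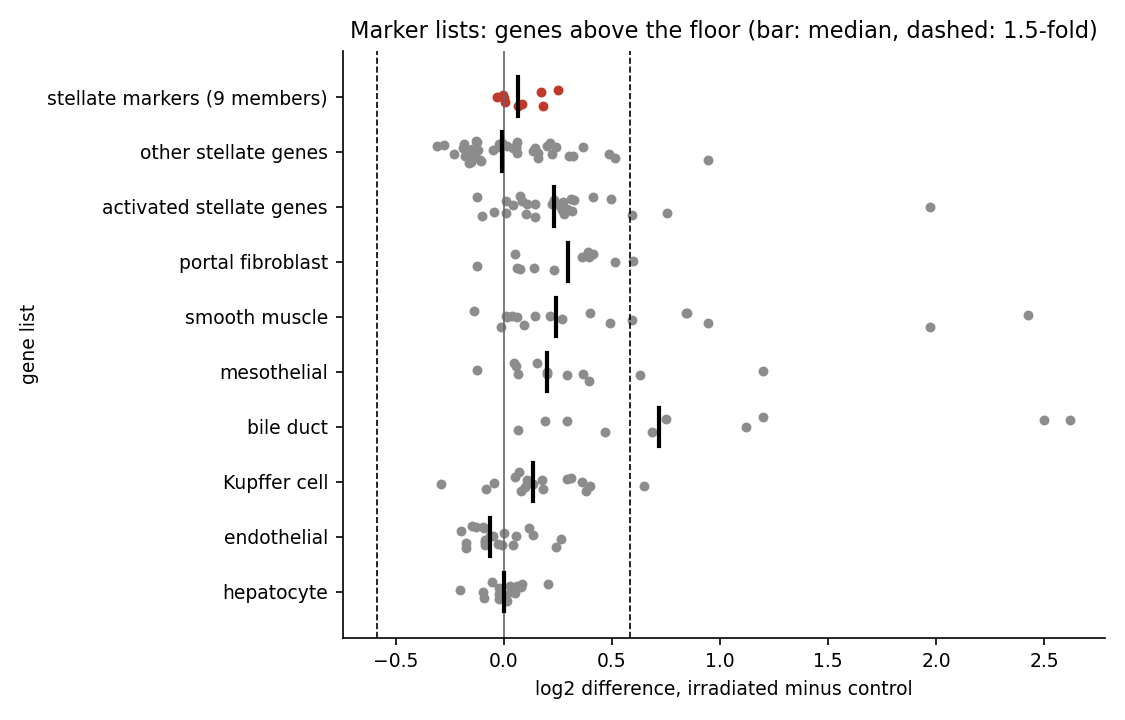
Log2 difference, irradiated minus control (x axis), of each gene above the floor in the 9 stellate markers (red) and in 9 other marker lists (grey, y axis), with the median of each list as a bar and 1.5-fold dashed. The stellate markers keep to a narrow range around a median of 0.07, and the bile duct list has a median of 0.72.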

How the data were processed

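Liver RNA was measured on 2 arrays, 1 irradiated and 1 control. The deposited table held log2 values per probe set for 41345 probe sets, which the authors made with RMA in Affymetrix Expression Console 1.3.1, per the submitters' processing notes. No header states the log base, which was read from the values, which ran from 1.46 to 13.9. RMA makes the arrays' distributions alike, so a change in total RNA per cell is invisible. Labelling started from 300 ng of total RNA, per the labels' protocols.

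Genes came from GEO's platform annotation, which can be old: 23521 probe sets had 1 gene symbol, 1814 several and 16010 none. Probe sets with 1 symbol were used, and the one with the highest mean stood for each gene. Some listed genes are not reported here. A gene was above the floor when the higher of its values reached 6.06. Genes were counted at 1.5-fold. Genes of like level had a mean within 0.5. With 1 array per group no test was possible, and the number of arrays limits the precision. Named genes were the 9 members, up to 4 genes past 1.5-fold in each list, and 33 genes fixed by name. Cyp26b1, Rarb and the genes named only for their place at the floor or for their 2 probe sets were added after their values were seen. The members and lists were chosen with earlier results of these data known. Python 3.11.15, pandas 2.3.3 and statsmodels 0.14.6 were used, and the procedure was tested on simulated data.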

Additional observations from a re-analysis of the deposited data

How the results depend on the processing

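No paired analysis was possible because there was 1 irradiated and 1 control array, so no array could be left out. The 9 markers were recomputed under 7 alternatives each: median centring, quantile scaling, loess, averaged probe sets, first of several symbols, 32 added on the linear scale, and values set to the floor. The 63 values ran from -0.05 to 0.25, each within 0.04 of the reported one, and none reached 1.5-fold, nor a lower threshold of 0.32 on the log2 scale. Averaged probe sets, first of several symbols and values set to the floor returned every marker's reported value unchanged. All 9 had 1 probe set and exceeded the floor on both arrays, so those alternatives could not move them. Lrat, Pdgfra, Hgf, Hand2 and Cygb stayed above 0 and Ngfr and Colec11 below, while Reln and Pdgfrb changed sign within 0.03 of 0. The markers' median ran from 0.04, over those reaching the 75th percentile of all values, to 0.08. Among all genes above the floor, 637 were higher and 514 lower past 0.32 and 44 and 25 at 2-fold, and without the floor 272 and 197 passed 1.5-fold. Other lists were rerun after the data were seen. The bile duct median was 0.55 with 32 added and its mean 0.99, the smooth muscle mean was 0.51 against a median of 0.24, and the endothelial mean was -0.03 against a median of -0.06. The cause was not tested. Reruns of the same 2 arrays do not measure the spread between animals.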
